A study of Saccharomyces cerevisiae with 12 samples.

Results

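RNA sequencing compared Saccharomyces cerevisiae cells after 6 h in concanamycin A with cells after 1 h, late against early exposure to an inhibitor of the vacuolar proton pump. The comparison takes 6 of the 12 libraries of a time series at 0, 1, 3 and 6 h, 3 libraries at 6 h against 3 at 1 h, over all 6216 features of the deposited count table. All cells were of the wild type strain BY4741, a haploid laboratory yeast with mating type a and with deletions at HIS3, LEU2, MET17 and URA3 that every group shares. Cells grew exponentially in YPD, a rich glucose medium, and both groups received the compound at 500 nM. Libraries of unexposed cultures kept for 1 or 6 h were not analysed here, so exposure and time in culture cannot be told apart. In bulk RNA, fewer cells of a type and less RNA per cell cannot be told apart either. Separate cultures are not stated for the replicates, so the p-values rest on a spread between samples that may be technical only.

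The vacuolar proton pump, or V-ATPase, has a cytosolic sector that splits ATP (V1) and a membrane sector that carries protons (Vo), and concanamycin A binds the membrane sector. The acidity of the vacuole drives the storage of iron, phosphate, calcium, zinc and amino acids and the digestion of delivered protein. Separate regulators turn on supply genes. Aft1 and Aft2 act on iron uptake, Upc2 on sterol synthesis and uptake, Pho4 on phosphate uptake and Leu3 on leucine synthesis.

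The 6 h libraries held 9644204, 9061684 and 8508894 counts and the 1 h libraries 9505589, 10232571 and 10479391. On the first principal component, with 84.4% of the variance of log2 levels, the 6 h libraries lay at -24.6, -20.6 and -19.8 and the 1 h libraries at 20.7, 21.8 and 22.5. Each library had 5 to 23 features more than 2-fold from the mean log2 level of the others of its time. Transcripts of mating type a were present throughout, STE2 with 1496 to 1689 counts at 6 h and 5180 to 6329 at 1 h, while the alpha-factor genes MF(ALPHA)1 and MF(ALPHA)2 had 11 and 26 counts in all 12 libraries. The deleted genes LEU2 and URA3 had 8 and 20 counts in the 12 libraries and MET17 had 0, while the partly deleted HIS3 still gave counts and changed by -0.78 ± 0.11 (log2).

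Of 5615 features tested, 1525 were higher at 6 h and 1498 were lower (edgeR, adjusted p under 0.05). These are 27.2% and 26.7% of the features tested, 53.8% together, and the shares of members given below stand against them. Large changes went mostly upward: 294 features rose at least 2-fold and 91 fell at least 2-fold, and at the 4-fold mark the counts were 63 and 7. The median log2 change of all features was 0.01, with 5% of features below -0.64 and 5% above 1.07. The 3 libraries at 6 h lay wholly above the 3 at 1 h for 1491 of the features called higher, and wholly below for 1467 of those called lower. Levels are CPM (counts scaled to a common library total) on TMM-adjusted library totals, fold changes are log2 of 6 h over 1 h, and the value after each ± beside a fold change is its standard error.

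**Figure D1:**
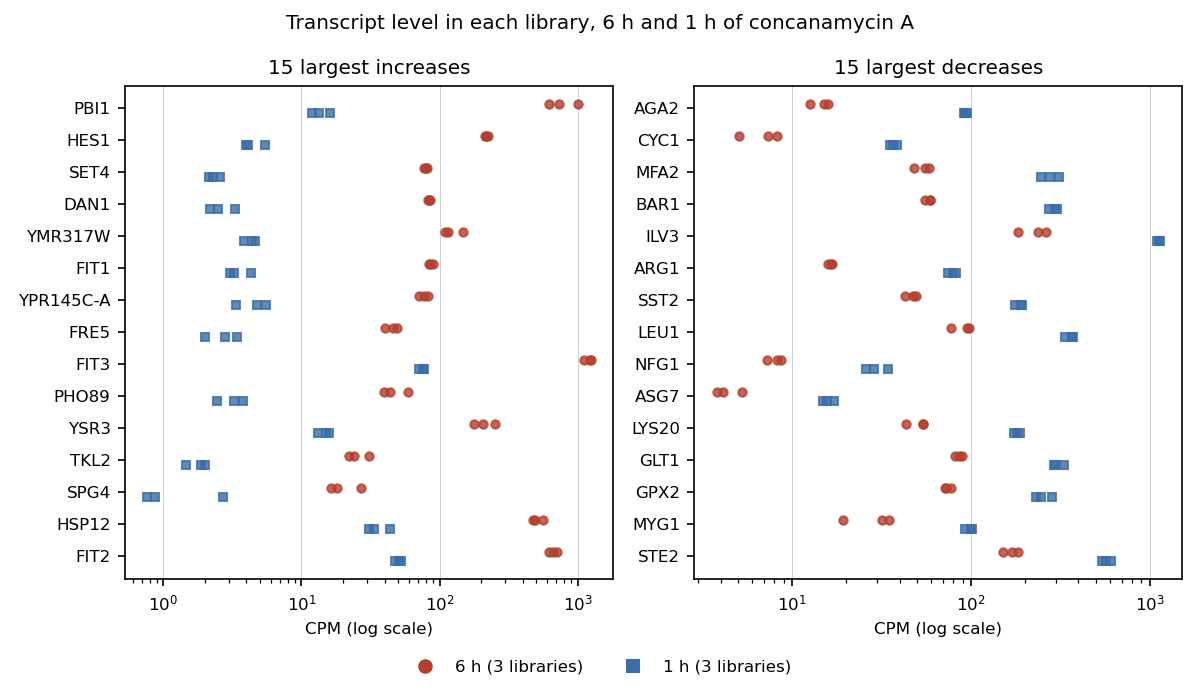
Level of the 15 transcripts with the largest increase (left) and the 15 with the largest decrease (right), with gene names down the page and CPM on a logarithmic axis; red circles are the 3 libraries at 6 h and blue squares the 3 at 1 h. The groups do not overlap for any of the 30, which the rule for naming them required, and the increases reach 5.82 ± 0.28 against -2.69 ± 0.09 for the largest decrease (log2, SE).

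Sterol uptake genes and anaerobic Upc2 targets rose most among the lists. All 12 of 12 listed genes were higher, with a median log2 change of 2.93. Like the other lists, this list was chosen with earlier results of these data known, so its count and median are descriptions and not tests. PBI1 (YPL272C, chrXVI:26611-28164, minus strand) had 997, 733 and 616 CPM at 6 h, against 12, 13.5 and 16 CPM at 1 h. This was the largest change of the comparison, 5.82 ± 0.28 (edgeR adjusted p = 8.30e-08), and the 6 h libraries also differed among themselves. HES1 (YOR237W, chrXV:781994-783298, plus strand), which encodes an oxysterol-binding protein, had 217, 214 and 225 CPM at 6 h, against 3.97, 4.10 and 5.47 CPM at 1 h. Its change was 5.59 ± 0.12 (edgeR adjusted p = 1.23e-12), with the libraries of a time close together. SET4, a SET-domain protein gene, had 77, 81.5 and 79.9 CPM at 6 h, against 2.30, 2.15 and 2.59 CPM at 1 h, a change of 5.07 ± 0.15. DAN1 (YJR150C, chrX:708811-709707, minus strand), a cell wall mannoprotein made in anaerobic cells, had 85.9, 82.7 and 84.1 CPM at 6 h, against 2.20, 3.32 and 2.49 CPM at 1 h. The groups of both genes were far apart, and DAN1 changed by 4.97 ± 0.14. UPC2, which encodes the sterol-sensing activator itself, averaged 403 ± 47.3 CPM at 6 h and 65 ± 3.72 CPM at 1 h (SD, n = 3 each), a change of 2.63 ± 0.11. The sterol importers AUS1 and PDR11 changed by 1.83 ± 0.07 and 1.07 ± 0.11, and the mannoproteins TIR1 and TIR3 by 3.22 ± 0.06 and 3.33 ± 0.10. DAN4, TIR2 and TIR4 were the other members and changed by 1.6 ± 0.19, 0.84 ± 0.15 and 0.81 ± 0.14. Outside the list, 6 of 7 tested seripauperin (PAU) genes, relatives of the TIR mannoproteins, were higher and 0 were lower; they are similar in sequence, so their separate counts are uncertain.

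Genes of ergosterol synthesis rose as well, unevenly along the pathway. Of 23 listed enzymes, 17 were higher and 2 were lower, with a median log2 change of 0.52. ERG3, the C-5 sterol desaturase (YLR056W, chrXII:253861-254958, plus strand), had 811, 881 and 921 CPM at 6 h, against 194, 188 and 189.6 CPM at 1 h, a change of 2.19 ± 0.06 (edgeR adjusted p = 2.13e-11). ERG25, the C-4 methyl sterol oxidase, had 940.4, 1047 and 1084 CPM at 6 h, against 257, 288 and 285 CPM at 1 h, a change of 1.89 ± 0.08. The groups of both genes stood well apart. ERG28, a scaffold of the demethylation complex, changed by 1.75 ± 0.06, ERG2, the C-8 isomerase, by 1.40 ± 0.06, and ERG6, the C-24 methyltransferase, by 1.26 ± 0.04. ERG11, the lanosterol demethylase, changed by 0.84 ± 0.07. Among genes of the steps up to squalene, HMG2, a reductase of the mevalonate step, changed by 0.35 ± 0.05, MVD1 by 0.32 ± 0.04, ERG10 by 0.30 ± 0.05, ERG9 by 0.27 ± 0.05 and ERG12 by 0.23 ± 0.07, all called higher. HMG1, ERG13, ERG20 and ERG8 did not pass the threshold, at 0.08 ± 0.12, 0.11 ± 0.08, -0.02 ± 0.05 and -0.14 ± 0.07. IDI1, the isopentenyl isomerase, and ERG7, the lanosterol synthase, fell by 0.30 and 0.41 on the log2 scale. Fatty acid genes moved in both directions. OLE1, the single stearoyl desaturase, had 4624, 4032 and 4191 CPM at 6 h, against 1214, 1221 and 1248 CPM at 1 h, a change of 1.80 ± 0.08. FAS1, a fatty acid synthase subunit, changed by 0.99 ± 0.05, and ELO1, an elongase of medium-chain fatty acids, by -1.70 ± 0.06, within a list of 12 fatty acid genes with 7 higher and 4 lower, or 2 lower with total-count scaling. YSR3, a phosphatase of sphingoid base phosphates, averaged 212 ± 37.2 CPM at 6 h and 14.7 ± 1.39 CPM at 1 h (SD, n = 3 each) and changed by 3.85 ± 0.17; the 21 listed sphingolipid genes were 8 higher and 8 lower.

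Upstream sequence is printed for 3 genes of these groups that hold a known sterol response element letter run, TCGTATA or its variant TCGTTTA. Searched on both strands of the 300 bases before the start codon, TCGTATA stood in 4.59% of the windows of 5495 tested nuclear reading frames. It stood in 21.3% of the windows of genes higher at least 4-fold (13 of 61), in 21.7% of the ergosterol list (5 of 23) and in 2 of 12 of the uptake list. The run was not particular to sterol genes. It also stood in 2 of 7 windows of the siderophore iron uptake list (28.6%), those of FIT1 and FIT2. TCGTTTA, which was added after the results had been seen, stood in 5.35% of all windows, in 9.84% of those of genes higher at least 4-fold (6 of 61), in 39.1% of the ergosterol list (9 of 23) and in 4 of 12 of the uptake list. Of the uptake list, DAN1 held TCGTATA, PBI1, TIR2 and TIR4 held TCGTTTA and DAN4 held both, while HES1, SET4, TIR3, TIR1, UPC2, AUS1 and PDR11 held neither. Of the ergosterol list, ERG3, ERG28, ERG2, ERG8 and ERG13 held TCGTATA, ERG13 at 2 places. ERG26, ERG24, ERG27, ERG4, MVD1, ERG10, ERG9, ERG20 and ERG7 held TCGTTTA. The others held neither, among them ERG25 and ERG6, which rose, and IDI1, which fell. Among the holders, ERG13, ERG8 and ERG20 did not pass the threshold and ERG7 fell. DAN1, ERG3, PBI1, FIT1 and FIT2 are also among the genes higher at least 4-fold, so those shares overlap with the lists. Each sequence is the RefSeq genome of build R64, the build of the count table, 5′ to 3′ on the gene's strand, from base 300 to base 101 before the start codon, with matches to the runs named here in capitals. A match describes letters and is not a site shown to be bound.
DAN1, chrX:709808-710007, minus strand: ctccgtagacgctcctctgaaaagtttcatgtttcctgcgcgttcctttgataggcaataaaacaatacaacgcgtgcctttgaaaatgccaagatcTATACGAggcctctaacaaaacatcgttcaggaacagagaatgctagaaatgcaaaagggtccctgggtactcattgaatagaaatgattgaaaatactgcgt
ERG3, chrXII:253561-253760, plus strand: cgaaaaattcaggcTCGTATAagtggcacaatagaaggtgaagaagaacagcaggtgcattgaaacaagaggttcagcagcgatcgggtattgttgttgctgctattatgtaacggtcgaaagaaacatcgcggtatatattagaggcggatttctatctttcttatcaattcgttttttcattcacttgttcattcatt
ERG28, chrV:238117-238316, minus strand: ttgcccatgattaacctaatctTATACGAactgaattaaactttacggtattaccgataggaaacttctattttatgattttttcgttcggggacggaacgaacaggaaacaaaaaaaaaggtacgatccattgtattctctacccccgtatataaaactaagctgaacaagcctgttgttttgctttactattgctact

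Iron uptake rose strongly on its siderophore side and less on its reductive side. Of 7 listed siderophore genes, 6 were higher, with a median log2 change of 2.74. The FIT genes encode cell wall mannoproteins that retain siderophore-bound iron. FIT1 (YDR534C, chrIV:1503314-1504900, minus strand) had 90.05, 83.6 and 85.1 CPM at 6 h, against 4.29, 3.02 and 3.26 CPM at 1 h, a change of 4.61 ± 0.13 (edgeR adjusted p = 2.34e-11). FIT2 (YOR382W, chrXV:1059531-1059992, plus strand) had 621, 707 and 659 CPM at 6 h, against 51.2, 52.2 and 47.9 CPM at 1 h, a change of 3.71 ± 0.06 (edgeR adjusted p = 3.43e-13). FIT3 (YOR383C, chrXV:1060441-1061055, minus strand) had 1241, 1219 and 1116 CPM at 6 h, against 77.6, 75.8 and 70.5 CPM at 1 h, a change of 4.0 ± 0.07 (edgeR adjusted p = 3.43e-13). In none of these genes did the libraries of a time spread by more than a small part of the distance between times. The siderophore transporters differed from each other: ARN2 changed by 2.74 ± 0.08, ARN1 by 1.42 ± 0.06 and SIT1 by 0.80 ± 0.15, while ENB1, the enterobactin transporter, had 304, 277 and 256 CPM at 6 h, against 256, 258 and 241 CPM at 1 h, groups that overlapped, with a change of 0.15 ± 0.13 that did not pass the threshold (edgeR adjusted p = 0.367).

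On the reductive side, 6 of 10 genes were higher and 0 were lower, with a median of 0.54. FRE5 (YOR384W, chrXV:1061564-1063648, plus strand), which resembles the ferric reductases and lies next to FIT3 on chromosome XV, had 46.4, 40.4 and 49.5 CPM at 6 h, against 2.82, 3.41 and 2.02 CPM at 1 h, a change of 4.04 ± 0.18. FTR1, the high-affinity iron permease, averaged 819 ± 51.9 CPM at 6 h and 418 ± 10.4 CPM at 1 h (SD, n = 3 each), a change of 0.97 ± 0.08. FET3, the multicopper oxidase that works with FTR1, had 1299, 1358 and 1349 CPM at 6 h, against 1324, 1349 and 1298 CPM at 1 h, with a change of 0.01 ± 0.05 (edgeR adjusted p = 0.846). FTR1 was thus called and FET3 was not, a difference between genes that was not itself tested. Their mean levels at 0, 1, 3 and 6 h were 158, 418, 751 and 819 CPM for FTR1 and 635, 1324, 1439 and 1335 CPM for FET3. Of 6 tested iron-sparing genes 3 were higher and 1 was lower. TIS11, which promotes decay of messages for iron-using proteins, changed by 1.41 ± 0.12, HMX1, the heme oxygenase, by 1.01 ± 0.17, LSO1 by 1.83 ± 0.21 and VHT1, the biotin importer, by -0.53 ± 0.08. Among 6 transporters of the vacuolar and mitochondrial membranes, FTH1, the vacuolar iron exporter permease, changed by 0.59 ± 0.06, MRS4, a mitochondrial iron carrier, by 0.31 ± 0.08, and CCC1, which loads iron into the vacuole, by -0.77 ± 0.09.

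The upstream sequences of the 3 FIT genes are printed because each holds 3 copies of GCACCC, the core letters bound by Aft1 and Aft2. On either strand, GCACCC stood in 4.11% of all 5495 windows, in 6 of 7 windows of the siderophore list (85.7%) and in 6 of 10 of the reductive list. It stood in 11.5% of the windows of genes higher at least 4-fold (7 of 61) and in 0 of 89 windows of genes lower at least 2-fold. FIT1, FIT2, FIT3 and FRE5 of the iron lists hold it and are among those 7, so the 4-fold share is not separate from the list shares. The windows of ENB1 and FET3, whose levels did not pass the threshold, held it at 2 places and at 1 place, and that of ARN2 held none. The sequences follow the convention given for the sterol genes, with capitals for GCACCC or its reverse complement only.
FIT1, chrIV:1505001-1505200, minus strand: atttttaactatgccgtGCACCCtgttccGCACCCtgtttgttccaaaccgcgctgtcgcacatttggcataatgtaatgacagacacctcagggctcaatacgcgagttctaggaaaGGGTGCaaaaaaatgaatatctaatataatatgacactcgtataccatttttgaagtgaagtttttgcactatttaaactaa
FIT2, chrXV:1059231-1059430, plus strand: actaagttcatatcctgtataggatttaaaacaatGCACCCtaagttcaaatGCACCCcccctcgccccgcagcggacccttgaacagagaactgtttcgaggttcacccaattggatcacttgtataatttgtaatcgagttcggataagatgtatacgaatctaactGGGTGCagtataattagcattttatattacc
FIT3, chrXV:1061156-1061355, minus strand: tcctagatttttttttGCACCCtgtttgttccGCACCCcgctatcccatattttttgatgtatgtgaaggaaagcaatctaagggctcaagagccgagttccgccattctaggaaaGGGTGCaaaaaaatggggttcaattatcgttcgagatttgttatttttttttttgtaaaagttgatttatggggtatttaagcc

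Genes for proteins that carry iron-sulfur clusters or heme fell. Of 19 listed, 15 were lower and 1 was higher, with a median log2 change of -0.57. CYC1, the main aerobic cytochrome c (YJR048W, chrX:526335-526664, plus strand), had 5.04, 8.22 and 7.36 CPM at 6 h, against 35.5, 38.6 and 36.6 CPM at 1 h, a change of -2.43 ± 0.13 (edgeR adjusted p = 8.12e-09). CYC7, the cytochrome c isoform favoured without oxygen, went the other way, with 19.8, 18.8 and 15.5 CPM at 6 h, against 7.95, 6.05 and 5.28 CPM at 1 h, and a change of 1.49 ± 0.37 (edgeR adjusted p = 0.00579). The groups of neither gene overlapped. CYC7 comes from a list of 8 oxygen-repressed isoforms, of which 5 were higher, 1 was lower and 2 did not pass the threshold (median 0.52). OLE1 and HEM13 are in that list too. Its fall was lost (0 lower) without 1 h replicate 2 or 3 or 6 h replicate 1 or 2. GLT1, the iron-sulfur enzyme glutamate synthase, averaged 85.8 ± 4.07 CPM at 6 h and 307 ± 22 CPM at 1 h (SD, n = 3 each), a change of -1.84 ± 0.06. CCP1, the heme enzyme cytochrome c peroxidase, changed by -1.71 ± 0.09, and CYB2, the lactate dehydrogenase with heme and the member that rose, by 1.20 ± 0.27. The nuclear genes of the respiratory chain and ATP synthase were 19 lower and 2 higher of 36 (median -0.29), CYC1 being in this list too; 1 was higher without 1 h replicate 2, 1 h replicate 3 or 6 h replicate 1. SDH3, a succinate dehydrogenase subunit, changed by -1.30 ± 0.07, QCR7 of complex III by -0.82 ± 0.08 and COX6 of complex IV by -0.78 ± 0.08. HAP1 changed by 0.85 ± 0.06. Heme synthesis had 3 of 8 genes higher and 4 lower, or 2 lower without 1 h replicate 2 or 6 h replicate 3 or with total-count scaling. HEM13 and HEM14, the oxygen-using steps, changed by 0.76 ± 0.08 and 0.75 ± 0.07, and HEM15, the ferrochelatase that inserts iron, by -0.77 ± 0.08. HEM13 was lowest at 1 h and highest at 0 h, with means of 165, 68.7, 121 and 116 CPM at 0, 1, 3 and 6 h. HEM14 overlaps BUD25 on the opposite strand over 489 bases; BUD25 had 21 counts in all 12 libraries, against 8095 for HEM14.

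The leucine, isoleucine and valine pathway shares ILV3 and LEU1 with the iron-sulfur list, and its genes fell. Of 12 genes, 11 were lower, with a median log2 change of -1.05. ILV3, the iron-sulfur enzyme dihydroxyacid dehydratase (YJR016C, chrX:464451-466208, minus strand), had 183, 239 and 265 CPM at 6 h, against 1141, 1095 and 1127 CPM at 1 h, a change of -2.29 ± 0.11 (edgeR adjusted p = 8.83e-09). LEU1, the iron-sulfur enzyme isopropylmalate isomerase (YGL009C, chrVII:476313-478652, minus strand), had 77.3, 95.3 and 98.4 CPM at 6 h, against 368, 337 and 374 CPM at 1 h, a change of -1.99 ± 0.09 (edgeR adjusted p = 1.20e-09). For both genes the groups lay far apart. The mean at 1 h was already below that at 0 h, with 1789.5, 1121, 566 and 229 CPM for ILV3 and 1571, 359.6, 167 and 90.4 CPM for LEU1 at 0, 1, 3 and 6 h. Members without a cluster fell too: OAC1, the mitochondrial carrier of isopropylmalate, changed by -1.63 ± 0.09, LEU9 by -1.48 ± 0.09, BAT1, the mitochondrial aminotransferase, by -1.14 ± 0.06 and ILV2 by -1.08 ± 0.06. LEU3, the activator of the pathway, changed by 0.19 ± 0.07; this call was lost without 1 h replicate 1 or 2 or 6 h replicate 2 or 3, leaving 0 members higher, and also with DESeq2 or its size factors. Other amino acid pathways fell as well. Of 10 arginine genes 7 were lower and 0 higher, and ARG1, the argininosuccinate synthase, had 16, 16.7 and 16.5 CPM at 6 h, against 82.4, 79.3 and 74.8 CPM at 1 h, a change of -2.26 ± 0.17. Unlike LEU1, ARG1 was at its highest mean level at 1 h, with 21, 78.8, 20.2 and 16.4 CPM at 0, 1, 3 and 6 h. Of 14 histidine and lysine genes 11 were lower and 1 was higher, and LYS20, the homocitrate synthase that opens lysine synthesis, changed by -1.85 ± 0.09. Purine and one-carbon synthesis had 12 of 20 genes lower and 0 higher, among them IMD2, an IMP dehydrogenase, at -1.34 ± 0.05, and SHM2, the cytosolic serine hydroxymethyltransferase, at -1.06 ± 0.07.

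**Figure D2:**
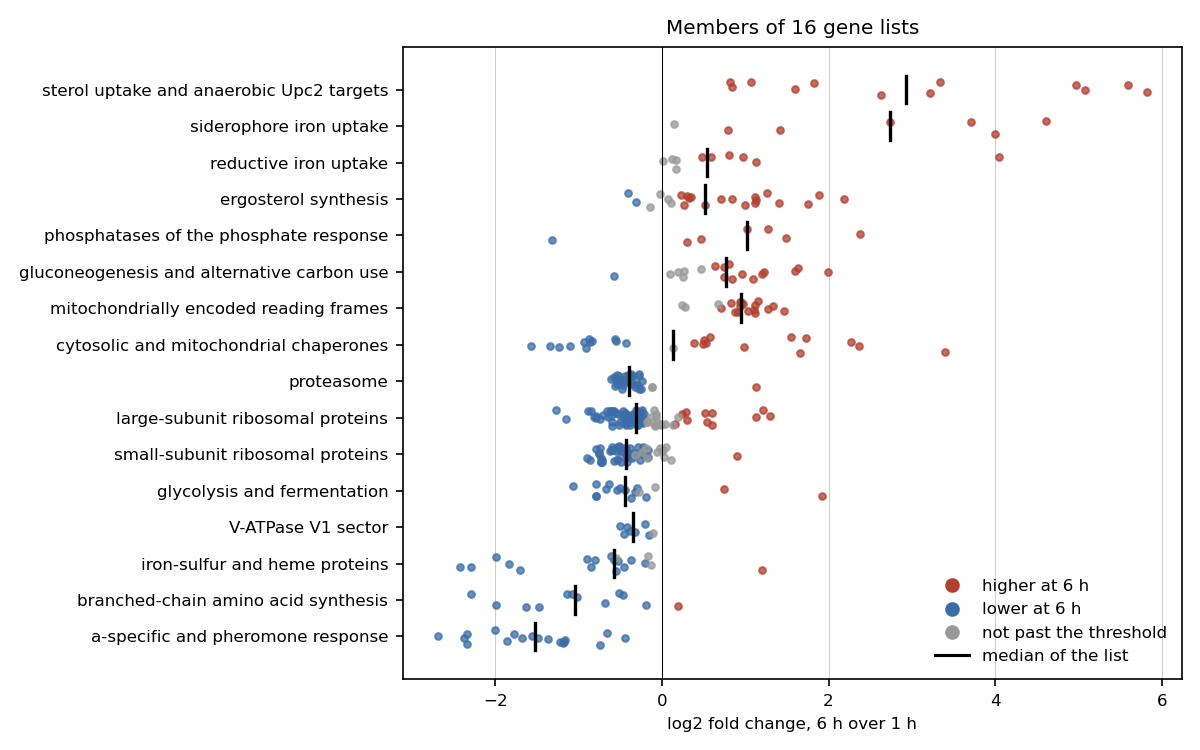
Log2 fold change of 6 h over 1 h for each tested member of 16 gene lists, with red points higher, blue points lower and grey points not past the threshold; black bars are list medians and the vertical scatter of points carries no value. Medians run from 2.93 for sterol uptake and anaerobic Upc2 targets to -1.52 for the a-specific and pheromone response genes, and the chaperones have members far out on both sides.

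The mating genes fell together. All 18 of 18 listed a-specific and pheromone response genes were lower, with a median log2 change of -1.52. Background for the group is that a-specific genes make a cell of mating type a able to send and receive pheromone, and that Ste12 turns them up when pheromone is sensed. AGA2, the binding subunit of a-agglutinin (YGL032C, chrVII:436570-436833, minus strand), had 12.6, 15.1 and 15.9 CPM at 6 h, against 92.6, 91.9 and 95.9 CPM at 1 h, a change of -2.69 ± 0.09 (edgeR adjusted p = 9.41e-11), the largest fall of the comparison. MFA2, an a-factor precursor gene, had 47.9, 55.5 and 58.1 CPM at 6 h, against 248, 276 and 314 CPM at 1 h, a change of -2.38 ± 0.09. BAR1, the secreted protease that degrades alpha-factor, had 55.5, 58.9 and 59.2 CPM at 6 h, against 273, 305 and 297 CPM at 1 h, a change of -2.34 ± 0.10. The 6 h libraries lay below the 1 h libraries for every one of the 18. STE2, the alpha-factor receptor, changed by -1.77 ± 0.12, SST2, which quiets the receptor's G protein, by -2.0 ± 0.08, and STE6, the a-factor exporter, by -1.19 ± 0.11. Pheromone-induced genes were in the same range, with FUS1, a cell fusion protein, at -1.55 ± 0.08 and FUS3, the kinase of the pathway, at -1.37 ± 0.12. The smallest falls were those of GPA1, the G protein subunit, at -0.66 ± 0.09 and STE12, the transcription factor, at -0.45 ± 0.07. FAR1, the kinase inhibitor that arrests the cell cycle in pheromone, and CLN1, a G1 cyclin, also fell, at -1.09 ± 0.16 and -0.94 ± 0.11. In the cyclin list as a whole 5 of 18 were lower and 3 higher, or 3 lower without 1 h replicate 2 and 1 higher without 1 h replicate 1 or 6 h replicate 3. STE3, the a-factor receptor normally made in alpha cells, was low at both times and higher at 6 h, with 9.28, 8.52 and 8.45 CPM, against 3.14, 4.20 and 3.84 CPM at 1 h, a change of 1.23 ± 0.18. The means at 0, 1, 3 and 6 h were 72.2, 93.5, 21.8 and 14.5 CPM for AGA2 and 247, 292, 70.5 and 57.8 CPM for BAR1, so most of the distance was covered by 3 h.

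TGAAACA, the core of the pheromone response element bound by Ste12, stood on either strand in 6.95% of all 5495 windows and in 72.2% of the windows of the mating list (13 of 18). It stood in 15.7% of the windows of genes lower at least 2-fold (14 of 89) and in 1.64% of those higher at least 4-fold (1 of 61). This run was added to the search after the results had been seen, and mating genes are part of the genes lower at least 2-fold. The windows of AGA2, MFA2 and BAR1 are shown as those of the mating genes with the largest falls and at least 10 CPM at 1 h, by the same convention.
AGA2, chrVII:436934-437133, minus strand: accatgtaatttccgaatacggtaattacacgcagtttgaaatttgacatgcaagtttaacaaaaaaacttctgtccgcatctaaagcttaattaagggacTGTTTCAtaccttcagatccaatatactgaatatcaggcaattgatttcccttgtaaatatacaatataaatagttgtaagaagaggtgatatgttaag
MFA2, chrXIV:352114-352313, plus strand: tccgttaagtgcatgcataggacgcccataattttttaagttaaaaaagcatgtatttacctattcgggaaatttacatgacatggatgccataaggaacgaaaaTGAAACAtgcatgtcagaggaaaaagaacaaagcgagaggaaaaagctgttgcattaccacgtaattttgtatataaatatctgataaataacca
BAR1, chrIX:322042-322241, plus strand: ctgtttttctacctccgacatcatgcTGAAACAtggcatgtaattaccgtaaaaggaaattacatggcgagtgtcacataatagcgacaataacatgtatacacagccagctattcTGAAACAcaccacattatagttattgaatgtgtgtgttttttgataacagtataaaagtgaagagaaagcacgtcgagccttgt

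Chaperones divided within families. Of 25 cytosolic and mitochondrial chaperone genes 12 were higher and 12 were lower, so the median of 0.13 describes neither set. HSP26, a small heat shock protein that binds unfolding protein (YBR072W, chrII:382030-382674, plus strand), had 1079.9, 1013 and 941 CPM at 6 h, against 100.4, 93 and 95.5 CPM at 1 h, a change of 3.39 ± 0.14 (edgeR adjusted p = 3.04e-09). SSA3, a stress-induced cytosolic Hsp70, had 288, 291 and 272 CPM at 6 h, against 56.1, 55.4 and 53.2 CPM at 1 h, a change of 2.37 ± 0.07 (edgeR adjusted p = 2.97e-11). SSA2, a constitutive Hsp70 of the same family, had 1802, 1910.3 and 1984 CPM at 6 h, against 5937, 5563 and 5481 CPM at 1 h, a change of -1.58 ± 0.05 (edgeR adjusted p = 4.12e-11). SSA4, the other stress-induced Hsp70, rose with SSA3, at 1.66 ± 0.12, and SSA1 fell with SSA2, at -0.84 ± 0.06. SSA1 and SSA2 match at 96.4% of aligned bases, so their separate counts are uncertain, while SSA3 and SSA4 match at 78.1%. The Hsp90 genes both fell, HSC82 at -1.35 ± 0.05 and HSP82 at -0.55 ± 0.08, with their partners CPR6 at -1.10 ± 0.05, STI1 at -0.94 ± 0.05 and AHA1 at -0.43 ± 0.06. The mitochondrial chaperonin genes HSP60 and HSP10 changed by -0.88 ± 0.05 and -1.24 ± 0.08. In the endoplasmic reticulum 4 of 15 chaperone genes were higher and 5 lower, or 3 lower without 1 h replicate 1 or 6 h replicate 1 and 2 lower with total-count scaling, and KAR2, the Hsp70 of that compartment, changed by -0.70 ± 0.06. HSP42 and BTN2, which gather misfolded protein into deposits, changed by 1.74 ± 0.18 and 2.27 ± 0.23, and HSP104, the disaggregase, by 0.54 ± 0.07.

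**Figure D3:**
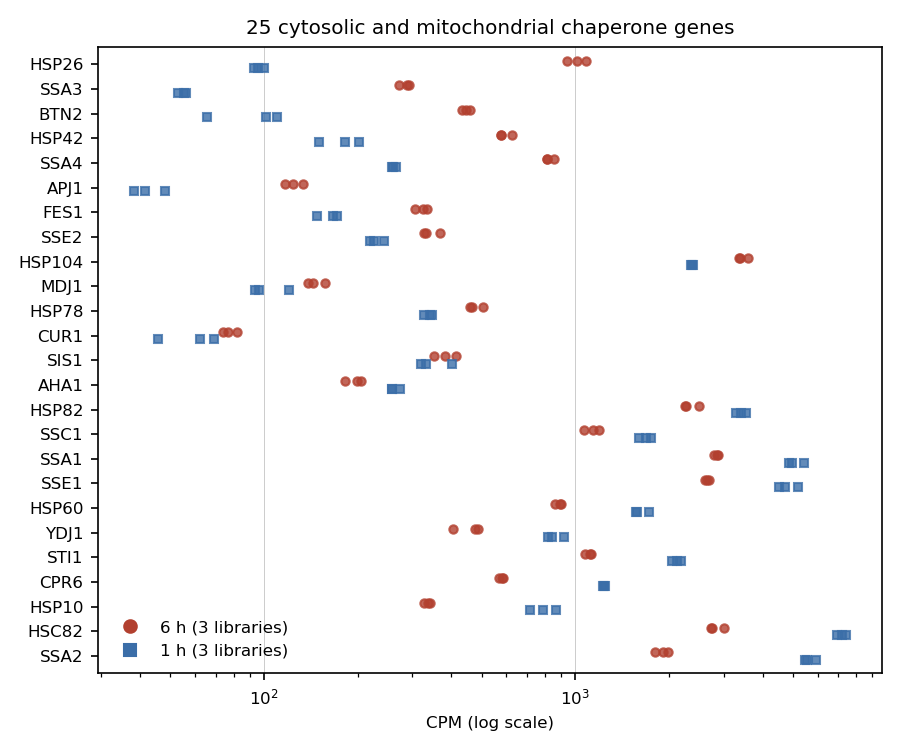
Level of 25 cytosolic and mitochondrial chaperone genes in each library, with genes down the page ordered by fold change and CPM on a logarithmic axis; red circles are the 3 libraries at 6 h and blue squares the 3 at 1 h. The 12 genes at the top are higher at 6 h, the 12 at the bottom lower, and SIS1 between them did not pass the threshold.

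The proteasome fell while its activator rose. Of 34 listed genes 31 were lower, with a median log2 change of -0.39. RPN7, a lid subunit, changed by -0.61 ± 0.05 and RPT4, a base ATPase, by -0.58 ± 0.08. The 1 higher member was RPN4, the transcription factor that induces proteasome genes, with 426, 379.9 and 379 CPM at 6 h, against 171, 181 and 189.9 CPM at 1 h, and a change of 1.13 ± 0.06 (edgeR adjusted p = 1.56e-08). Its groups were well separated. Thioredoxin and glutathione enzymes also fell, 14 lower and 4 higher of 21 (median -0.72). GPX2, a glutathione peroxidase (YBR244W, chrII:707528-708016, plus strand), had 71.8, 73 and 78.1 CPM at 6 h, against 233, 247 and 284 CPM at 1 h, a change of -1.78 ± 0.09. AHP1, a peroxiredoxin, averaged 2882 ± 63.7 CPM at 6 h and 6009 ± 248 CPM at 1 h (SD, n = 3 each), and SRX1, the sulfiredoxin that repairs peroxiredoxins, 23.3 ± 2.16 CPM at 6 h and 51.7 ± 2.54 CPM at 1 h (SD, n = 3 each). TSA2, an inducible peroxiredoxin, was the exception in size, with 188, 145 and 136 CPM at 6 h, against 44.3, 37 and 28.9 CPM at 1 h, a change of 2.09 ± 0.23. Mean levels at 0, 1, 3 and 6 h were 5.39, 51.7, 24 and 23.3 CPM for SRX1, 2055, 6009, 4032 and 2882 CPM for AHP1 and 41, 36.7, 61 and 156 CPM for TSA2. SRX1 and AHP1 were highest at 1 h and TSA2 at 6 h. Drug efflux had 7 of 15 genes lower and 3 higher. PDR5, the main multidrug pump, had 709, 635 and 686 CPM at 6 h, against 2264, 2140.1 and 1994 CPM at 1 h, a change of -1.66 ± 0.07, and the pump SNQ2 changed by -1.13 ± 0.09. The carbonyl reductases GRE2 and OYE3 moved apart, GRE2 by -1.74 ± 0.07 and OYE3, an old yellow enzyme, by 1.61 ± 0.16, in a list with 3 of 16 higher and 5 lower. At 0, 1, 3 and 6 h the means were 30.1, 272, 108 and 81.1 CPM for GRE2 and 2.99, 7.35, 11.1 and 22.5 CPM for OYE3. For PDR5 they were 1049, 2133, 919 and 677 CPM and for GPX2 94.6, 255, 106 and 74.3 CPM. GRE2, PDR5 and GPX2 were thus highest at 1 h, and GRE2 at 6 h was still above its 0 h mean.

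Genes of carbon metabolism moved by branch. Of 18 listed genes of gluconeogenesis and alternative carbon use 12 were higher and 1 was lower (median 0.77); without 6 h replicate 1, 7 were higher, and with a filter of 10 CPM, which takes out low genes, 5 were. MDH2, the cytosolic malate dehydrogenase, averaged 146 ± 11.8 CPM at 6 h and 74.8 ± 3.75 CPM at 1 h (SD, n = 3 each), a change of 0.97 ± 0.08, and SFC1, the succinate-fumarate carrier, 6.10 ± 1.24 CPM at 6 h and 1.52 ± 0.0968 CPM at 1 h (SD, n = 3 each), a change of 2.0 ± 0.24. Several of these genes were at low levels, FBP1, the fructose bisphosphatase, at 1.93 ± 0.602 CPM at 6 h and 0.637 ± 0.282 CPM at 1 h (SD, n = 3 each). HXT5, a hexose transporter of slow-growing cells, comes from a list of 15 with 6 higher and 1 lower, or 0 lower without 1 h replicate 2, 6 h replicate 1 or 6 h replicate 2. It had 69.2, 48.9 and 50.02 CPM at 6 h, against 6.59, 5.85 and 4.99 CPM at 1 h, a change of 3.27 ± 0.22 (edgeR adjusted p = 1.86e-07). Of 17 glycolysis and fermentation genes 13 were lower and 2 higher (median -0.45). ENO2, the main enolase, had 6512, 7035 and 6906 CPM at 6 h, against 15208, 14106 and 13523 CPM at 1 h, a change of -1.07 ± 0.05, and ENO1, its isozyme, had 1815, 1644 and 1607 CPM at 6 h, against 1028, 995 and 989 CPM at 1 h, a change of 0.75 ± 0.13. Likewise TDH3 changed by -0.79 ± 0.05 and its isozyme TDH1 by 1.92 ± 0.19, so the 2 members that rose were both minor isozymes of steps whose main isozyme fell. TDH1 was lowest at 1 h and highest at 0 h, with means of 1021, 212, 382 and 800 CPM at 0, 1, 3 and 6 h. TDH3 resembles TDH2 at 95.8% of bases, which makes that pair uncertain. ENO1 and ENO2 match at 94.8% of aligned bases, so their separate counts are uncertain too. General stress genes of Msn2 and Msn4 were 12 higher and 0 lower of 28, with a median of 0.81, and 16 did not pass the threshold. HSP12, a small membrane-associated stress protein, had 558, 492 and 473 CPM at 6 h, against 43.6, 33.4 and 30.9 CPM at 1 h, a change of 3.82 ± 0.53, and SPI1, a cell wall protein, changed by 1.99 ± 0.09. TPS1 and CTT1, classic members that make trehalose and destroy peroxide, did not pass the threshold, at 0.12 ± 0.14 and -0.17 ± 0.46. The fit takes its spread from all 12 libraries, and HSP12 had 54.3, 48.7 and 5.76 CPM at 0 h. Standard errors and calls of such genes thus also carry spread at 0 h. Of 31 autophagy genes 12 were higher, 18 did not pass the threshold and 1 was lower, the fall being lost (0 lower) without 1 h replicate 2, 1 h replicate 3 or 6 h replicate 3. ATG39, a receptor for the nuclear envelope, changed by 1.64 ± 0.30 and ATG32, the receptor for mitochondria, by 0.93 ± 0.09.

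Genes of sulfur and nitrogen metabolism moved in both directions. Of 29 tested sulfur and methionine genes 11 were higher and 7 lower (median 0.16). SUL1, a high-affinity sulfate permease (YBR294W, chrII:789235-791814, plus strand), had 8.67, 6.68 and 8.12 CPM at 6 h, against 0.836, 1.66 and 1.15 CPM at 1 h, a change of 2.66 ± 0.27 (edgeR adjusted p = 3.75e-06). SUL2, the other sulfate permease, had 97.5, 73 and 81.5 CPM at 6 h, against 20.2, 19.6 and 19.3 CPM at 1 h, a change of 2.09 ± 0.12. Neither gene had overlapping groups. STR3, which cleaves cystathionine, and MET2, which acetylates homoserine, changed by 1.85 ± 0.12 and 1.45 ± 0.11. Members that feed the pathway with homoserine fell, HOM2 at -1.0 ± 0.08 and HOM3 at -0.90 ± 0.06, while the sulfate reduction gene MET16 did not pass the threshold, at 0.01 ± 0.10. MET17, the enzyme that fixes sulfide, is deleted in the cells of both times. In the list of aromatic and arginine catabolism 3 of 8 genes were higher and 4 lower (median -0.12). CAR1, the arginase, and CAR2, the ornithine aminotransferase, changed by -1.06 ± 0.05 and -1.07 ± 0.08. PDC6, a minor pyruvate decarboxylase in the same list, had 17.4, 19 and 14 CPM at 6 h, against 2.40, 1.85 and 1.92 CPM at 1 h, a change of 3.03 ± 0.22. Of 20 genes under nitrogen catabolite repression 6 were higher and 1 was lower, a share higher near that of all features; 11 were higher with total-count scaling. DAL80, a repressor of that set, had the largest change but was barely detected, with 2.02, 2.36 and 1.73 CPM at 6 h, against 0.836, 0.195 and 0 CPM at 1 h. The amino acid permease GAP1 did not pass the threshold, at 0.27 ± 0.12. The glutamate dehydrogenases parted, GDH3 at 1.82 ± 0.09 and GDH1, its isozyme, at -0.50 ± 0.06. In the tricarboxylic acid cycle, 4 of 15 genes were higher and 4 lower, or 8 lower with the replicate number as a block, with both subunits of the NAD-linked isocitrate dehydrogenase among the higher ones, IDH1 at 1.33 ± 0.05 and IDH2 at 0.80 ± 0.05, and ACO1, the iron-sulfur enzyme aconitase, among the lower ones at -0.37 ± 0.07.

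Ribosomal protein genes were mostly lower but not uniformly within gene pairs. Of 82 large-subunit genes 57 were lower and 11 higher (median -0.31), and of 56 small-subunit genes 44 were lower and 1 was higher (median -0.43). Yeast carries most of these proteins on a pair of genes. Of 59 pairs tested, 28 had both genes lower, 10 had one gene higher and the other lower, and 0 had both higher. RPL9A had 323, 351 and 316 CPM at 6 h, against 799, 775 and 821 CPM at 1 h, a change of -1.27 ± 0.06 (edgeR adjusted p = 4.19e-09). RPL9B had 331, 307 and 294 CPM at 6 h, against 130.3, 135 and 136 CPM at 1 h, a change of 1.21 ± 0.07 (edgeR adjusted p = 1.09e-08). Between 1 and 6 h the pair thus moved in opposite directions, with no overlap of groups in either gene, and its genes match at 94.2% of aligned bases. Both genes were highest at 0 h. Means at 0, 1, 3 and 6 h were 1609, 799, 398 and 330 CPM for RPL9A and 403, 134, 255 and 310 CPM for RPL9B. RPS9A changed by 0.91 ± 0.10 and RPS9B by -0.74 ± 0.07, at a match of 91.8%, and RPL22A changed by -0.62 ± 0.07 and RPL22B by 1.13 ± 0.11, at a match of 78.6%. RPL7A and RPL7B, at -0.60 ± 0.06 and 1.30 ± 0.06, match at 98.6%, so how reads were shared between them is uncertain. RPL7B was also highest at 0 h, with means of 179, 27.8, 41.6 and 68.5 CPM at 0, 1, 3 and 6 h. Other parts of the translation machinery fell: 27 of 37 translation factors were lower and 0 higher, with HYP2, the elongation factor eIF5A, at -0.95 ± 0.07; 1 was higher without 1 h replicate 1. Ribosome biogenesis factors were 23 lower and 1 higher of 66, the rise being lost (0 higher) without any 1 of the 6 libraries, and 15 were lower without 6 h replicate 1. RNA polymerases I and III were 9 lower and 2 higher of 20, or 4 lower without 6 h replicate 1 and 1 higher without any 1 of the other libraries. Mitochondrial ribosomal proteins were 32 lower and 0 higher of 71, or 1 higher without 6 h replicate 1 or 3. Total-count scaling gave 14 lower ribosome biogenesis genes, 4 lower polymerase genes and 17 lower mitochondrial ribosomal protein genes.

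**Figure D4:**
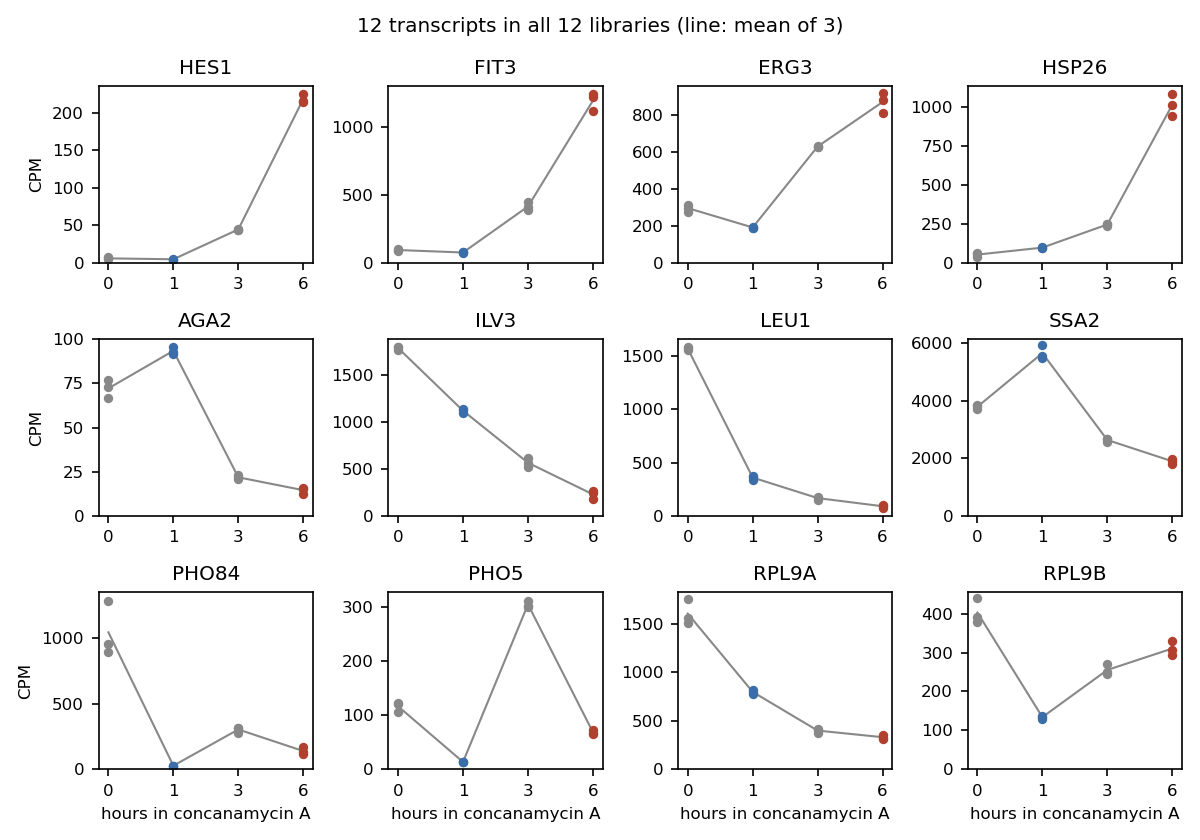
Level in CPM (vertical axes from 0) of 12 transcripts against hours in concanamycin A, with evenly spaced times; points are single libraries, blue at 1 h, red at 6 h and grey at 0 and 3 h, and lines join the means of 3. HES1, FIT3, ERG3 and HSP26 are highest at 6 h, ILV3 and LEU1 fall at every step, PHO84 and PHO5 are lowest at 1 h, and RPL9A falls while RPL9B is higher at 6 h than at 1 h.

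Phosphate uptake genes were higher at 6 h than at 1 h, their lowest time. PHO89, a sodium-coupled phosphate importer (YBR296C, chrII:796798-798522, minus strand), had 59.3, 43.8 and 39.4 CPM at 6 h, against 3.76, 2.44 and 3.26 CPM at 1 h, a change of 3.91 ± 0.47 (edgeR adjusted p = 7.09e-05). PHO84, the high-affinity importer (YML123C, chrXIII:24037-25800, minus strand), had 115, 134 and 165 CPM at 6 h, against 26.3, 25.8 and 25 CPM at 1 h, a change of 2.42 ± 0.17 (edgeR adjusted p = 4.87e-07). PHO5, the main secreted acid phosphatase, had 64.4, 72.9 and 67.3 CPM at 6 h, against 12.7, 13.4 and 13.3 CPM at 1 h, a change of 2.38 ± 0.08. None of the groups overlapped, yet the 6 h level was not the highest of the series for any of these genes. Means at 0, 1, 3 and 6 h were 83.7, 3.16, 68.3 and 47.5 CPM for PHO89. They were 1046, 25.7, 303 and 138 CPM for PHO84 and 116, 13.1, 305 and 68.2 CPM for PHO5. PHO84 lies opposite an annotated antisense RNA over 1764 bases, and reads from both cannot be told apart without strand, whose use in counting is not given in the sources used here. PHO3, the constitutive acid phosphatase next to PHO5, went down, at -1.31 ± 0.10. In the lists, 6 of 7 phosphatases were higher and 1 was lower, and 7 of 14 transport and signalling genes were higher and 3 lower, or 1 lower without 1 h replicate 2 or 3 or any 1 library of 6 h or with total-count scaling. VTC3 and VTC4, subunits of the vacuolar polyphosphate polymerase, changed by 0.69 ± 0.05 and 0.54 ± 0.05. Both were highest at 0 h, with means at 0, 1, 3 and 6 h of 796, 81.1, 216 and 131 CPM for VTC3 and 666, 156, 324 and 227 CPM for VTC4.

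The genes of the inhibited pump fell slightly. Of 8 V1 genes 7 were lower and 0 higher (median -0.35), and of 8 Vo genes 6 were lower and 1 was higher (median -0.38). VMA5 of V1 averaged 308 ± 13.9 CPM at 6 h and 437 ± 6.97 CPM at 1 h (SD, n = 3 each), a change of -0.50 ± 0.05, and VMA16, a proteolipid of the rotor in Vo, changed by -0.60 ± 0.06. VPH1 and STV1 encode the same Vo subunit for the vacuole and for the Golgi; VPH1 fell, at -0.41 ± 0.05, and STV1 rose, at 0.28 ± 0.06. Assembly factors were 5 lower and 0 higher of 7, or 3 lower without 1 h replicate 3, 6 h replicate 2 or 6 h replicate 3. PMA1, the proton pump of the plasma membrane, had 6533, 6415 and 6779.9 CPM at 6 h, against 8862, 8797 and 8699 CPM at 1 h, a change of -0.42 ± 0.05. Vacuolar hydrolases went the other way, 6 of 12 higher and 1 lower, with AMS1, the vacuolar mannosidase, at 313, 236 and 226 CPM at 6 h, against 30.6, 31.1 and 24.5 CPM at 1 h, a change of 3.17 ± 0.18, and PRB1, proteinase B, at 1.0 ± 0.09. Calcium transport and calcineurin targets were 10 higher and 1 lower of 15 (median 0.43). RCN1, a calcineurin regulator, changed by 1.33 ± 0.15, GSC2, an inducible glucan synthase, by 1.43 ± 0.09, and PMC1, the vacuolar calcium pump, by 0.79 ± 0.11. The cell wall list was split, 10 higher and 11 lower of 23. CWP2, a mannoprotein of aerobic walls, averaged 1112 ± 81.9 CPM at 6 h and 2529 ± 74.3 CPM at 1 h (SD, n = 3 each), a change of -1.18 ± 0.05, CWP1 changed by -0.98 ± 0.17, and the wall proteins PIR3 and NCW2 changed by 1.84 ± 0.34 and 1.58 ± 0.12. Among the metals, the zinc list was 7 higher and 2 lower of 13, with IZH4, a membrane protein tied to zinc and sterol supply, at 2.25 ± 0.12. INO1, which makes inositol phosphate, averaged 77.8 ± 5.94 CPM at 6 h and 19.6 ± 0.222 CPM at 1 h (SD, n = 3 each) and changed by 1.99 ± 0.08 in a phospholipid list with 8 of 18 higher and 4 lower.

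RNAs other than nuclear messages took a larger share of the 6 h libraries. Nuclear reading frames held 84.0% ± 2.10 of counts at 6 h and 89.6% ± 1.44 at 1 h (SD, n = 3 each). SCR1, the RNA part of the signal recognition particle, held 7.81%, 6.56% and 6.47% at 6 h, against 3.90%, 4.41% and 4.87% at 1 h. Mitochondrial reading frames held 0.647%, 0.552% and 0.641% at 6 h, against 0.208%, 0.311% and 0.393% at 1 h. No group overlapped the other in these shares, and the exact two-sided permutation p was 0.1 for each, the smallest that 3 libraries against 3 can give. Of 19 tested mitochondrial reading frames 16 were higher and 0 were lower (median 0.95). COX2, a cytochrome oxidase subunit made in the mitochondrion, had 465, 357 and 390.4 CPM at 6 h, against 152, 219.7 and 262 CPM at 1 h, a change of 0.94 ± 0.19, while 19 of 36 nuclear genes of the respiratory chain and ATP synthase fell. Mitochondrial reading frames that lie inside the introns of COX1 and COB share bases with them and are uncertain. Of 74 small nucleolar and nuclear RNAs 13 were higher and 0 lower (median 0.19), but 20 were higher without 6 h replicate 3, 21 were higher with total-count scaling, 2 were lower without 6 h replicate 1 and 1 was lower without 1 h replicate 1. The part of these RNA shares in the changes of single messages was not tested. With TMM scaling on nuclear reading frames alone, 1493 features were higher and 1533 lower. With total counts in place of TMM the split was 1913 higher and 1067 lower, 64.2% of calls higher against 50.4%.

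Many of the largest changes fell outside the listed pathways. Of the 63 features higher at least 4-fold, 32 were in no list, and of the 91 lower at least 2-fold, 32 were in none. YMR317W had 115, 109 and 147 CPM at 6 h, against 3.87, 4.39 and 4.61 CPM at 1 h, a change of 4.84 ± 0.17. TKL2, a minor transketolase, and SPG4, named for a stationary-phase phenotype, changed by 3.84 ± 0.22 and 3.84 ± 0.53. NRG2, a repressor of glucose-repressed genes, and TMA10, a ribosome-associated protein, were picked after their values were seen and changed by 2.34 ± 0.17 and 2.99 ± 0.56 (log2). TMA10 had 759, 532 and 464 CPM at 6 h, against 105, 68.5 and 48.1 CPM at 1 h, a wide spread within each time but no overlap. By position, 16 of 41 tested nuclear reading frames within 10 kb of a chromosome end were higher (39.0%) and 35 of 86 between 10 and 20 kb (40.7%), against 26.9% beyond 50 kb.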

How the data were processed

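Whole-cell RNA was sequenced at 0, 1, 3 and 6 h, with 3 libraries a time. Per the labels' protocols, ribosomal RNA was removed with Ribo-Zero Gold and libraries were made with a TruSeq stranded total RNA kit. Per the submitters' processing notes, STAR 2.5.2b, featureCounts 1.5.1 and genome R64 were used; the sources used here do not give the annotation release, the strand setting or the treatment of reads with several positions. The authors deposited raw counts per gene. Features passing edgeR's filterByExpr at its default settings were tested (5615; 601 were not). edgeR 4.0.16 (R 4.3.3) used TMM scaling and a quasi-likelihood fit of all 12 libraries by time, with Benjamini-Hochberg adjustment over all tested features and a threshold of 0.05. Standard errors were taken as the log2 change over the square root of F, so they carry spread at 0 and 3 h too. The fit was tested on simulated counts with 200 of 5615 features changed, up or down at random. Their spread followed the trend with level, with no spread particular to a gene and no shift in RNA shares. There the fit found 88.1% of features changed 1.5-fold, 100% of those changed 2-fold and 100% of those changed 4-fold, with 4.48% of calls false. In the data 53.8% of features were called and RNA shares shifted, so these rates need not hold for them.

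Named genes are the 15 largest changes each way, among called features with non-overlapping groups and at least 10 CPM at the higher time, and up to 4 per list; others were named after their values were seen. Comparison and lists were chosen with earlier results of these data known. No table of promoters was at hand, so windows of 300 bases before the start codon were read from the RefSeq R64 genome, of which the first 200 are printed, leaving out bases close to the gene. Identity between genes is from blastn 2.17.0. Alternatives were other scalings, filters, sets of libraries, DESeq2 1.42.0, a replicate block and leaving out each library. The depth of 8508894 to 10479391 counts a library limits what can be said of low transcripts such as FBP1.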

Additional observations from a re-analysis of the deposited data

How the results depend on the processing

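The counts of 1525 higher and 1498 lower stayed within 1.5 times under every alternative run, but which of the 2 was larger did not hold. Total-count scaling gave 1913 higher and 1067 lower and moved the median log2 change to 0.10, DESeq2 size factors in edgeR gave 1436 and 1572, and TMM on nuclear reading frames alone gave 1493 and 1533. No filter gave 1548 and 1478, a filter of 10 CPM 1448 and 1415, and DESeq2 1359 and 1513. A fit of the 6 h and 1 h libraries alone gave 1536 and 1575, and one of 1, 3 and 6 h gave 1642 and 1686. Leaving out 1 library in turn gave 1288 to 1400 higher and 1261 to 1380 lower. The replicate number as a block gave 1685 higher and 1637 lower. Deviations of same-numbered libraries at 6 h and 1 h correlated at 0.301, -0.0377 and 0.268, and 6 h replicate 2 correlated best with 1 h replicate 3 (0.143). Replicates 1 and 3 of these times correlated with each other at -0.317 and -0.277. Over all pairs of times, replicates 1 and 3 correlated with their own number at 0.238 to 0.461, so the numbers carry some shared structure. The main fit did not take the numbers to pair the samples, and what they share was not tested. With the block the tricarboxylic acid list had 8 lower genes in place of 4, and every other list count of 5 or more stayed within 1.5 times. Of 3570 values of 239 named genes under these alternatives, 3525 kept direction and side of the threshold, 45 lost the call and 0 reversed; the cause was not tested. Depth limits transcripts of a few CPM, such as CYC7, FBP1 and SFC1.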

Other observations

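Letter runs bound by other regulators were searched the same way in the 300 bases before the start codon, and their shares are descriptions with no test. CACGTG, bound by Pho4, stood in 4.36% of windows of genes higher at least 2-fold and 1.12% of those of genes lower at least 2-fold, against 3.64% of all 5495 windows. AGGGG, bound by Msn2 and Msn4, stood in 29.1% and 19.1% of the same sets, against 22.6% of all. TTACTAA or TTAGTAA, bound by Yap1, stood in 9.09% and 12.4%, against 8.15% of all, and in 3.28% of windows of genes higher at least 4-fold. ATTGTT, within the site of Rox1, stood in 35.6% and 32.6%, against 34.4% of all. GATGAG, found before many ribosome biogenesis genes, stood in 15.3% and 14.6%, against 18.8% of all. Among the lists searched, GATGAG stood in 4 of 10 windows of reductive iron uptake and ATTGTT in 14.7% of the proteasome windows.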
